A study of Mus musculus with 4 samples.

Results

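ATP-binding cassette (ABC) transporters are membrane proteins that spend ATP to move lipids, drugs, bile salts, conjugated metabolites or peptides across a membrane. Members of subfamilies E and F have the ATP-binding domains but no membrane part, and they act on ribosomes and translation. In brain capillaries the family is best known for drug efflux into the blood and for the export of cholesterol and phospholipid. The genes described here were the listed genes with a symbol made of Abc, a subfamily letter from a to g, a number and, in some, a last letter. Of 24873 listed genes, 43 matched, and 39 remained after Abcb1a, Abcg2, Abcc4 and Abcc9 were left out.

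RNA was measured in 4 libraries of cerebral cells, which the study describes as CD31+CD45- and the labels as Brain tdTomato+. The mice of both groups had the genotype Cdh5cre;Mgpflox/flox, with a tamoxifen-activated Cre under the promoter of VE-cadherin (Cdh5), an endothelial gene, and both alleles of Mgp floxed. The 2 control libraries came from mice given no tamoxifen. The 2 tamoxifen libraries came from mice injected with 75 mg/kg daily on 5 days, starting at 10 weeks of age. Cells of both groups were taken on day 9, and each library was a pool of 3 mice, so variation between single mice was not measured. No strain was named in the labels, and the study's method for isolating such cells names C57BL/6J mice. The libraries held 37475154 and 41025014 reads on genes in the control group and 35387438 and 49799321 in the tamoxifen group. Values are normalized counts, that is, reads divided by a factor for each library. A single read was worth 1.37 and 1.25 normalized counts in control libraries 1 and 2, and 1.08 and 0.719 in tamoxifen libraries 1 and 2.

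Mgp, the floxed gene, did not separate the groups by the test used here. It lies on chromosome 6 from 136849433 to 136852821 (GRCm39) and had 1094 and 1352 normalized counts in control libraries 1 and 2 and 945 and 909 in tamoxifen libraries 1 and 2. Both tamoxifen libraries were below both controls, with a log2 fold change of -0.39 (SE, the standard error, 0.18, limma, Benjamini-Hochberg (BH) adjusted p = 0.0986). The log2 fold change was 0.08 after each library was rescaled to the same total, so the groups below are named by their labels. The counts cover the whole gene, and the deleted exons were not analysed here. By real-time PCR on CD31+CD45- cerebral cells, the study reported that Mgp kept falling over the days after tamoxifen. Endothelial markers were present in both groups and lower in the tamoxifen libraries. All 10 of 10 endothelial genes lay below control in both tamoxifen libraries, against 39.2% of all tested genes. Their median log2 fold change was -2.91. Their summed level was 1041850 and 1032470 normalized counts in control libraries 1 and 2 and 180606 and 92069 in tamoxifen libraries 1 and 2. Flt1, a receptor for vascular endothelial growth factor and the most abundant of them, had 312914 and 283220.0 normalized counts in the controls and 43942 and 19956 in the tamoxifen libraries. In such bulk libraries, fewer cells of a type and less RNA per cell cannot be told apart.

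The expression of ABC transporter genes differed between the groups in both directions, as did that of many other genes. Of the 39 genes, 37 had a mean of at least 10 normalized counts and were tested with limma on log2(normalized count + 1), among 20485 genes in all. A gene was called at a BH-adjusted p under 0.05 and a log2 fold change over 1 in size. By this rule 19 of 37 ABC genes were called, against 44.7% of all tested genes. In the tamoxifen libraries 15 were higher and 4 lower, against 28.6% and 16.0% of all tested genes. Of the 15, Abca13, Abcb4, Abca6, Abcc2 and Abcc12 had control means under 10. These genes passed the filter only through their tamoxifen values, so they could enter only as rises. The same filter was used for all tested genes. At the adjusted p alone 27 of the 37 ABC genes passed, against 58.9%. The libraries of the groups did not overlap for 28 of the 37, 20 above and 8 below control, against 82.3% of all tested genes, 43.1% above and 39.2% below. The median log2 fold change was 0.53 over the ABC genes and 0.05 over all tested genes. Abca13 had no read in the controls, and its lower bound was a log2 fold change of 5.10. That bound is still above the ABC median, so using it could not move the median of 0.53.

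Fewer ABC genes, and fewer of all tested genes, were called without tamoxifen library 1 or without tamoxifen library 2. The median log2 fold change over the ABC genes was then 0.48 and 0.61. Over all tested genes it was 0.06 in both cases. With equal totals, the median of all tested genes moved by 0.47 on the log2 scale, and 17 ABC genes were called higher and 3 lower. With quantile normalization that median moved by -0.25, and 12 were called higher and 5 lower. The median over the ABC genes was 0.996 with equal totals and 0.49 with quantile normalization. With only genes of a mean of at least 100 tested, it was 0.18, and -0.03 over all tested genes. Of all called genes, 64.1% were higher as deposited, 79.7% with equal totals and 47.2% with quantile normalization. Exact permutation (two-sided) over 2 against 2 libraries gives no p smaller than 0.333 for any gene, and limma's adjusted p draws on the variance of many genes.

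**Figure D1:**
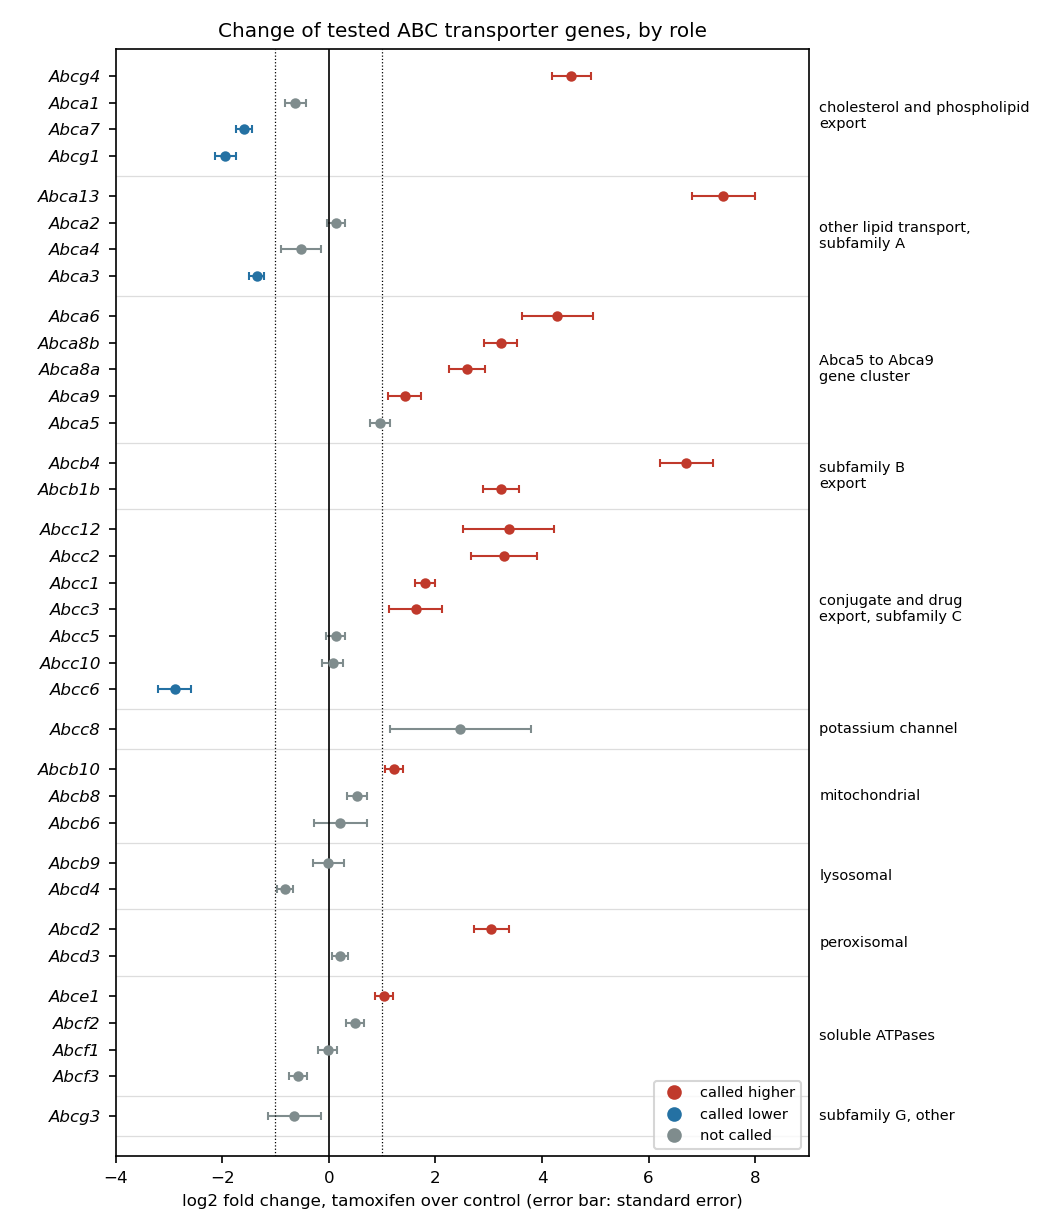
Log2 fold change of 35 of the 37 tested ABC transporter genes, tamoxifen over control (x axis, points; bars are the standard error, n = 2 libraries a group), grouped by role. Values ran from -2.89 for Abcc6 to 6.71 for Abcb4 among genes with reads in both groups, and the added count of 1 sets the point of Abca13, which had 0 reads in both controls. Dotted lines mark a log2 fold change of 1 in either direction, and Abca1, Abca2, Abca4, Abcb6, Abcb9, Abcc5, Abcc10 and Abcf1 changed sign with another scaling, test or set of libraries.

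The tamoxifen libraries also held more RNA of marker genes of other cells. The counts called higher in these lists stand beside 28.6% of all tested genes. Pluripotent cell genes were called higher for 9 of 9, and summed to 98.6 and 150.2 normalized counts in control libraries 1 and 2 and 50987 and 39872 in tamoxifen libraries 1 and 2. Tdgf1, a co-receptor of Nodal, was the most abundant in the tamoxifen libraries, and Utf1 had at most 3 reads in each control. All 7 of 7 cell cycle genes were called higher, led in the tamoxifen libraries by Mki67, with sums of 1122 and 1355 in the controls and 80373 and 77450.5 in the tamoxifen libraries. Neutrophil genes were called higher for 10 of 10, with sums of 720.5 and 1219 against 117764 and 87523. S100a9 was the most abundant of these in the tamoxifen libraries, Cebpe had 0 reads in both controls and Prtn3 at most 3. Erythroid genes were called higher for 11 of 11, led by the globin gene Hbb-bs, and summed to 18663 and 37992 in the controls and 186728 and 122138 in the tamoxifen libraries. Fibroblast genes were called higher for 8 of 8, led in the tamoxifen libraries by Col1a1, with sums of 2431 and 3456 against 70579 and 61051. Epithelial genes were called higher for 8 of 9, led in the tamoxifen libraries by Cdh1, with sums of 366 and 692 against 9407 and 7105. Krt19 among them had at most 1 read in each control. These lists moved in the direction of the 15 ABC genes called higher, and the endothelial list in that of the 4 called lower. The part of any cell type in the ABC values was not tested.

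Many glial and other brain cell genes were called higher too, several of them most of all in tamoxifen library 2. Astrocyte genes were called higher for 9 of 9, led in the tamoxifen libraries by the glutamate transporter gene Slc1a2, and summed to 30114 and 35947 in control libraries 1 and 2 and 155672 and 323772 in tamoxifen libraries 1 and 2. Oligodendrocyte precursor genes were called higher for 6 of 7, led in the tamoxifen libraries by Ptprz1, and lower for Gpr17, with sums of 4069 and 4019 against 24206 and 55813. Of 8 oligodendrocyte genes 7 were called higher, led by Cnp, with sums of 1118 and 1397 against 5402 and 5960. Ermn had at most 1 read in each control, and Opalin was not analysed here. Neuron genes were called higher for 6 of 8, led by Map2, with sums of 1749 and 2155 against 14554 and 23985. Choroid plexus and ependymal genes were called higher for 6 of 8, with Ttr the most abundant in tamoxifen library 2 only, and with sums of 6816 and 9546 against 16839 and 70924. Microglia and macrophage genes were called higher for 7 of 11, with sums of 2752 and 4421 against 7762 and 6546. Ptprc, the gene of CD45, which the sort given by the study selects against, had 50.7 and 83.9 in the controls and 1423 and 1119 in the tamoxifen libraries. Pericyte and smooth muscle genes were called for 1 of 10, Notch3, which was higher (28.6% of all tested genes). They summed to 32946 and 62097 in the controls and 44877 and 84329 in the tamoxifen libraries, with Rgs5 the most abundant. That sum was higher in the second library of each group.

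Among the genes for export of cholesterol and phospholipid, Abcg1 and Abca7 were called lower and Abcg4 higher. Abcg1, which passes cholesterol to high-density lipoprotein particles, fell in the tamoxifen libraries. It had 8694 and 7289 normalized counts in control libraries 1 and 2 and 2435 and 1761 in tamoxifen libraries 1 and 2. Both tamoxifen libraries lay below both controls, and the log2 fold change was -1.94 (SE 0.20, limma, BH-adjusted p = 0.000146). Abcg1 lies on chromosome 17 from 31276649 to 31336969. Abca7, a phospholipid transporter linked to phagocytosis, had 5876 and 5968 normalized counts in the controls and 2110.15 and 1853 in the tamoxifen libraries. It was 2.99-fold lower, with a log2 fold change of -1.58 (SE 0.15, limma, BH-adjusted p = 0.000115).

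Abca1, which loads cholesterol and phospholipid onto apolipoprotein A-I, was not called. Its values were 18453 and 14714 normalized counts in the controls and 10140.0 and 11275 in the tamoxifen libraries, which did not overlap. The log2 fold change was -0.62 (SE 0.19, limma, BH-adjusted p = 0.0252), and 0.01 with quantile normalization. Abcg4, the close relative of Abcg1 known from neurons and astrocytes, went the other way. It had 21.9 and 25.03 normalized counts in the controls and 558 and 585 in the tamoxifen libraries, so both tamoxifen libraries were far above both controls. That was a 24.4-fold rise and a log2 fold change of 4.55 (SE 0.37, limma, BH-adjusted p = 6.05e-05). Abcg4 lies on chromosome 9 from 44184484 to 44199912. Per kilobase of transcript, the mean level of Abcg1 fell from 1369 to 359 normalized counts and that of Abcg4 rose from 5.87 to 143.

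The genes of sterol control and of lipid acceptors were mixed. Of 15 tested, 2 were called higher and 3 lower, against 28.6% and 16.0% of all tested genes. Soat1, which esterifies cholesterol for storage, had 796 and 728 normalized counts in control libraries 1 and 2 and 3545 and 4312 in tamoxifen libraries 1 and 2, a log2 fold change of 2.36. Lcat, which esterifies cholesterol on lipoproteins, had 2.20, and 1.88 without tamoxifen library 2, where it was not called. Pltp, the phospholipid transfer protein gene and the most abundant of the list in the controls, fell from 140254 and 160459 to 23465 and 9975 normalized counts. The Pltp log2 fold change was -3.29, and that of Scarb1, a receptor for high-density lipoprotein, was -2.05.

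The other lipid transporters of subfamily A included a called gene without a read in the controls. Abca13, a very large transporter on chromosome 11 from 9141942 to 9634851, had 0 reads in both controls. The tamoxifen libraries had 173 and 210 reads, or 187 and 151 normalized counts. Taking 3 reads as the most that a count of 0 allows in a library, the level was at least 43.0-fold higher. This bound covers counting error only. Its limma call was at a BH-adjusted p of 5.56e-05. Abca3, which fills lamellar bodies with phospholipid in lung and is also made in brain, fell. It had 8142 and 8240.5 normalized counts in control libraries 1 and 2 and 3288 and 3122 in tamoxifen libraries 1 and 2. Its log2 fold change was -1.35 (SE 0.15, limma, BH-adjusted p = 0.000191), and it came under the size limit with equal totals (-0.88) and with quantile normalization (-0.999). Exons of the opposite-strand gene D330041H03Rik share 10.8% of its exon bases, and reads from the 2 genes cannot be told apart where strand was not used in counting.

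Abca2, a lysosomal lipid transporter abundant in oligodendrocytes, was not called. It had 3244 and 4137 normalized counts in the controls and 3827 and 4246 in the tamoxifen libraries, so the groups overlapped. Abca4, the retinal transporter of vitamin A derivatives, had 622 and 482 in the controls and 255 and 574 in the tamoxifen libraries. The lower value of tamoxifen library 1 set its log2 fold change of -0.52, which was 0.07 without that library and -1.10 without tamoxifen library 2. With quantile normalization it was called at -1.25. Abca12, a lipid transporter of skin, was under the limit for testing, with 1 and 0 reads in the controls and 5 and 3 in the tamoxifen libraries. The ratio of 5.29 had a 95% exact counting interval from 0.709 to 235.

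The Abca5 to Abca9 genes, which lie side by side on chromosome 11, were all above control in both tamoxifen libraries, and their log2 fold changes were above 0 under every alternative run. From 109823016 to 110228542 they follow each other on the minus strand as Abca8b, Abca8a, Abca9, Abca6 and Abca5. They are little studied lipid transporters, and 4 of the 5 were called higher. Over all tested genes 28.6% were called higher and 43.1% lay above control in both tamoxifen libraries. Abca8b had 57.5 and 68.8 normalized counts in control libraries 1 and 2 and 603 and 589 in tamoxifen libraries 1 and 2. The tamoxifen libraries were close to each other and far from the controls, with a log2 fold change of 3.22 (SE 0.31, limma, BH-adjusted p = 0.000110). Abca8a had 53.4 and 62.6 normalized counts in the controls and 349 and 362 in the tamoxifen libraries. The Abca8a log2 fold change was 2.60 (SE 0.34, limma, BH-adjusted p = 0.000451), and it was not called without tamoxifen library 1 (2.62) or without tamoxifen library 2 (2.57).

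Abca6 was nearly absent from the controls, with 1 and 4 reads, against 59 and 115 reads in the tamoxifen libraries. In normalized counts these were 1.37 and 5.01 against 63.9 and 82.7, a ratio of 23.0 with a 95% exact counting interval from 9.67 to 71.7. Its log2 fold change was 4.29 (SE 0.67, limma, BH-adjusted p = 0.00106), and it was not called without tamoxifen library 1 (4.47) or 2 (4.11). The Abca6 value was 3.62 without control library 1 and 4.96 without control library 2. Abca9, looked at after its value was seen, had 188 and 313 normalized counts in the controls and 575 and 743 in the tamoxifen libraries. The Abca9 log2 fold change of 1.43 was not called without tamoxifen library 1 (1.61), without tamoxifen library 2 (1.24) or with quantile normalization (0.62). Abca5 had 573 and 511 in the controls and 981 and 1132 in the tamoxifen libraries, and its log2 fold change of 0.96 was short of the size limit. It was called without control library 1 (1.04) and with equal totals (1.43). The listed neighbours within 250 kb on either side were Fam20a, called higher at 2.51, and Map2k6, not called at 0.81.

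Of the export genes of subfamily B, Abcb4 and Abcb1b rose from low levels and Abcb11 was too scarce to test. Abcb4, which flips phosphatidylcholine into bile in the liver, had 5.48 and 13.8 normalized counts in control libraries 1 and 2 and 1055 and 991 in tamoxifen libraries 1 and 2. These were 4 and 11 reads against 973 and 1379. The ratio was 104, with a 95% exact counting interval from 62.7 to 185, and the log2 fold change was 6.71 (SE 0.49, limma, BH-adjusted p = 4.23e-05). Per kilobase of transcript its mean level rose from 2.10 to 223 normalized counts, from place 33 to place 20 among the 39 genes. Abcb1b, a P-glycoprotein gene that exports many drugs, had 86.3 and 73.8 normalized counts in the controls and 972 and 594 in the tamoxifen libraries. Both tamoxifen libraries were above both controls, and the log2 fold change was 3.23 (SE 0.33, limma, BH-adjusted p = 0.000148). Abcb11, the bile salt export pump, overlapped between the groups, with 0 and 2 reads in the controls and 5 and 2 in the tamoxifen libraries. Its ratio of 2.31 had a 95% exact counting interval from 0.440 to 22.8.

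Abcb4 and Abcb1b follow Abcb1a on the plus strand of chromosome 5. Abcb1a, the P-glycoprotein gene of the blood-brain barrier, spans 8710022 to 8798575, Abcb1b 8847994 to 8916389 and Abcb4 8943604 to 9011999. Other listed genes within 250 kb on either side also went both ways. Dbf4 and Gm15610 were called higher, Gm42684, Gm42686 and Tmem243 lower, and the other tested neighbours were not called. Among genes left out of the family count, Abcb1a fell from 109592 and 102653 to 15917 and 6305 normalized counts (log2 fold change -3.40), Abcg2 had -2.73, Abcc4 -2.35 and Abcc9 1.10. Of the reads on Abcb1a and Abcb1b together, Abcb1b held 0.0787% (95% Wilson interval 0.0615 to 0.101) in control library 1 and 0.0719% (0.0557 to 0.0927) in control library 2. It held 5.76% (5.40 to 6.13) in tamoxifen library 1 and 8.61% (8.06 to 9.19) in tamoxifen library 2. These intervals cover counting error only.

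**Figure D2:**
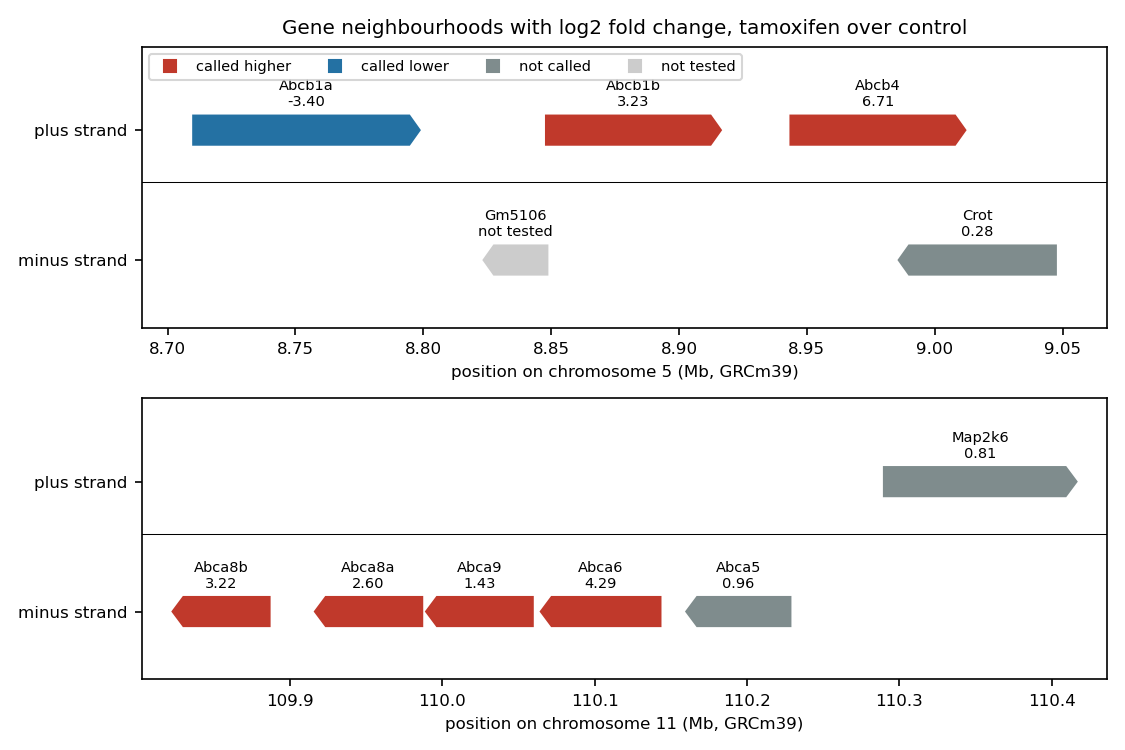
Maps of the Abcb1a to Abcb4 region of chromosome 5 and of the Abca8b to Abca5 region of chromosome 11 (x axis, position in Mb, GRCm39), with selected listed genes as arrows in the direction of transcription. The number is the log2 fold change, tamoxifen over control: -3.40 for Abcb1a beside 3.23 for Abcb1b and 6.71 for Abcb4, and 0.96 to 4.29 over the Abca genes on the minus strand.

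The transcripts of Abcb1a and Abcb1b are close copies, which matters here because the pair moved in opposite directions. The longest single alignment of their Ensembl canonical transcripts covered 4032 bases at 87.18% identity. It was 1570 bases at 78.85% for Abcb1b and Abcb4, and 3541 bases at 77.01% for Abcb1a and Abcb4. The longest identical stretch was 338 bases of coding sequence in exons 13 and 14 of both genes. It includes the codons of the ABC signature, an ATP-contacting motif of the family. The 135 bases around these codons are shown, as spliced, because a read inside them cannot be given to either gene. Capitals mark the 15 signature bases, and the sequence is on the plus strand at chr5:8752549-8752903 in Abcb1a and chr5:8874869-8875223 in Abcb1b (GRCm39, with the intron between these exons left out).
Abcb1a and Abcb1b: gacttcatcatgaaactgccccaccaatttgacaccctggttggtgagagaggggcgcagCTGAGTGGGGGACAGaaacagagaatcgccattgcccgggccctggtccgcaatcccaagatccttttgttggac
Abca8a and Abca8b aligned over 4926 bases at 73.63% identity. Their longest identical stretch was 97 coding bases in exons 15 and 16, on the minus strand at chr11:109959673-109960275 in Abca8a and chr11:109855836-109857581 in Abca8b, shown as spliced and with no motif marked.
Abca8a and Abca8b: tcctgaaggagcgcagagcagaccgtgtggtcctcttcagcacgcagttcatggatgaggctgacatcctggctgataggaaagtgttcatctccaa
The longest identical stretch of Abcb4 was 110 coding bases with Abcb1a and 98 with Abcb1b. How the reads of such stretches were assigned was not stated. The counts of these genes are therefore uncertain by a share that was not measured.

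The 250 bases before the start of Abcb1a, Abcb1b and Abcb4 were read from GRCm39 at the start of each gene's canonical transcript, since these neighbours moved apart. Both strands were searched for the GC box (GGGCGG), which binds the factor Sp1. They were also searched for the sequence of the TATA box, TATAAA, where the general transcription machinery assembles. The remaining search was for the motif bound by the factor NF-Y, which reads CCAAT. Capitals mark a match. All are on the plus strand, at chr5:8709772-8710021 for Abcb1a, chr5:8847744-8847993 for Abcb1b and chr5:8943354-8943603 for Abcb4.
Abcb1a: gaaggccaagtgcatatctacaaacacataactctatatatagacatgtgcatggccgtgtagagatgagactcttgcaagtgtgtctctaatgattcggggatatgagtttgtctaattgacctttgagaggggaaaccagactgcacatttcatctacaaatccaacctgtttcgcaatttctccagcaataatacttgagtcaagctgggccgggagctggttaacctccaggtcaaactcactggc
Abcb1b: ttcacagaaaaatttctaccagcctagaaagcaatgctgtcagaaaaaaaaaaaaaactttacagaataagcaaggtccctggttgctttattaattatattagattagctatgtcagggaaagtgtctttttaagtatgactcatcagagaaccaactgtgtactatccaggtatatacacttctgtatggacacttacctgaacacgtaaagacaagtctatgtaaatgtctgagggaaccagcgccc
Abcb4: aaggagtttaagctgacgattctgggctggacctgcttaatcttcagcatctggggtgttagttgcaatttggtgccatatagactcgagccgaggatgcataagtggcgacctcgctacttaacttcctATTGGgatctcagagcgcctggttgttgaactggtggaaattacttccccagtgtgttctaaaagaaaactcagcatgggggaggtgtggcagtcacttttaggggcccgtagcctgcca
The Abcb4 window held CCAAT in 1 place, on the opposite strand, and these letters were not in the windows of Abcb1a and Abcb1b. None of the 3 windows held the GC box or the TATA box letters. Among 21751 windows of the same length before protein-coding genes, 36.3% held a GC box, 36.5% CCAAT and 11.9% a TATA box. Before the 39 ABC genes these were 14, 8 and 3 windows. The last 50 bases of the Abcb1b window lie in an exon of the opposite-strand RNA gene Gm5106, which had 1 to 6 reads a library.

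Of the 7 exporters of conjugates and drugs of subfamily C, 1 gene abundant in the controls was called lower. Another 4, scarcer in the controls, were called higher. Over all tested genes 16.0% were called lower and 28.6% higher. Abcc6, whose loss causes mineral deposits in vessels and skin, lies on chromosome 7 from 45616979 to 45679859. It had 13236 and 10338 normalized counts in control libraries 1 and 2 and 2228 and 1114 in tamoxifen libraries 1 and 2. That was the largest fall among the 39 genes, 7.05-fold, with a log2 fold change of -2.89 (SE 0.31, limma, BH-adjusted p = 0.000174). It was also called lower with each library left out, from -3.39 without tamoxifen library 1 to -2.39 without tamoxifen library 2. Abcc2, the apical pump for bilirubin conjugates in liver, had 4.11 and 3.75 normalized counts in the controls and 63.9 and 34.5 in the tamoxifen libraries. The controls had 3 reads each, and the ratio of 11.8 had a 95% exact counting interval from 5.24 to 32.8. Its limma call was at a log2 fold change of 3.28 (SE 0.61, BH-adjusted p = 0.00259).

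Abcc12, a transporter of unsettled substrate, had 3 and 0 reads in the controls and 17 and 38 in the tamoxifen libraries. The ratio of 12.1 had a 95% exact counting interval from 3.93 to 60.6. Its log2 fold change of 3.38 (SE 0.86, limma, BH-adjusted p = 0.0111) was not called without tamoxifen library 1 (3.65), without tamoxifen library 2 (3.10) or with quantile normalization (2.20). The calls of Abcc1 and Abcc3 were looked at after their values were seen. Abcc1, a broad exporter of glutathione conjugates, had 626 and 807 normalized counts in the controls and 2591 and 2400.4 in the tamoxifen libraries, a 3.48-fold rise. Abcc3, a basolateral exporter of bile salts and glucuronides, had 26.02 and 48.8 in the controls and 115 and 111 in the tamoxifen libraries. The Abcc3 log2 fold change of 1.63 was not called without control library 1 (1.19), without tamoxifen library 1 (1.61) or 2 (1.66), or with quantile normalization (0.60).

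Abcc5, an exporter of cyclic nucleotides and folates, was abundant in both groups. It had 4856 and 4570 normalized counts in the controls and 4452 and 5954 in the tamoxifen libraries. The groups overlapped, and the log2 fold change was 0.13 (SE 0.18, limma, BH-adjusted p = 0.567). Abcc10, a lipophilic drug exporter, had 0.07 and also overlapping groups. Of 9 tested genes of xenobiotic control and glutathione, 1 was called higher and 2 lower, with the same 28.6% and 16.0% over all genes. Gsr, which regenerates glutathione, had a log2 fold change of 1.47, and was not called without tamoxifen library 1 (1.29). Gstm1 and Gsta4, which join glutathione to foreign compounds, had -1.84 and -1.26. Gsta4 was the most abundant of the list, with 16657 and 19198 normalized counts in the controls and 9593 and 5825 in the tamoxifen libraries. It was not called with equal totals (-0.79), with quantile normalization (-0.67) or without tamoxifen library 2 (-0.90). Nr1i3 was not analysed here, and Nr1i2, the drug-sensing pregnane receptor, was under the limit for testing.

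**Figure D3:**
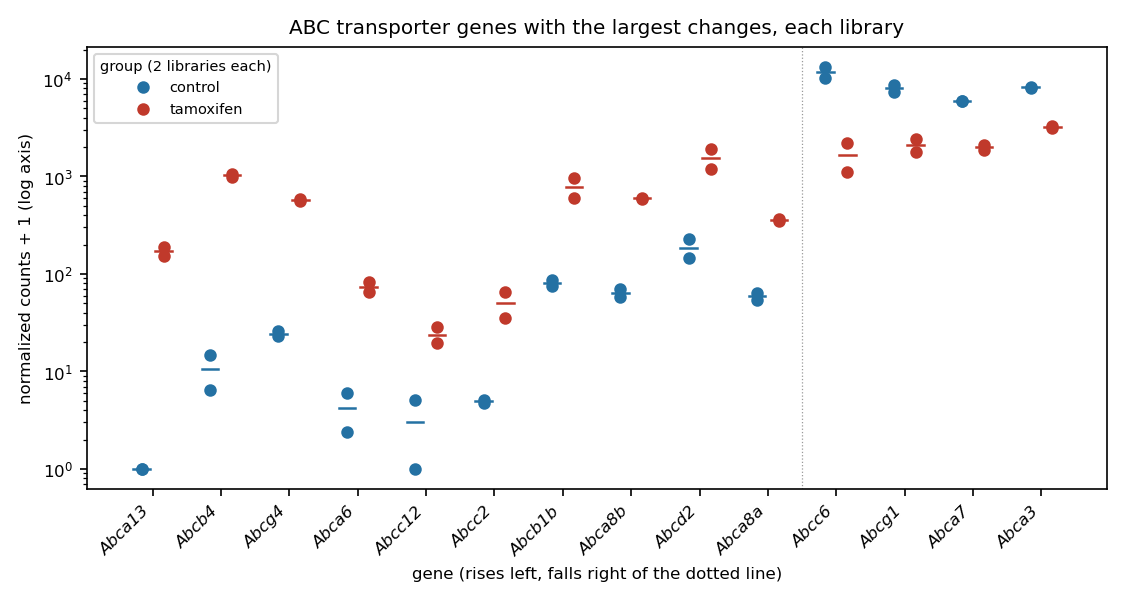
Normalized counts plus 1 (y axis, log scale) of the 10 ABC transporter genes with the largest rises and the 4 called lower, in each of the 2 control and 2 tamoxifen libraries (points) with the group mean (line). Values ran from 0 normalized counts of Abca13 in both controls to 13236 of Abcc6 in control library 1. The genes were picked as called with the largest changes, so their lack of overlap between the 2 groups follows largely from that choice. Over all tested genes, 82.3% did not overlap.

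Abcc8, the sulfonylurea receptor that regulates ATP-sensitive potassium channels, depended on single libraries. It had 1.37 and 43.8 normalized counts in control libraries 1 and 2 and 27.1 and 115.02 in tamoxifen libraries 1 and 2, with control library 2 above tamoxifen library 1. Its log2 fold change of 2.47 was not called (SE 1.32, limma, BH-adjusted p = 0.142). It was 4.59 and called without control library 2, and 0.35 without control library 1. With the replicate block, which pairs libraries by number, it was called at 2.47. Kcnj11, the pore gene beside it, was also higher in the second library of each group, with 1.37 and 21.3 normalized counts in the controls and 35.8 and 130.1 in the tamoxifen libraries, and its groups did not overlap. It was called higher at 3.26, 1 of the 2 pore genes tested (all tested genes: 28.6%). It was not called without control library 1 (1.64), tamoxifen library 1 (4.17) or tamoxifen library 2 (2.34), nor with quantile normalization (2.14), without the filter or without the variance trend. Kcnj8, the more abundant pore gene and also a pericyte marker, had 712 and 1444 in the controls and 1029 and 2459 in the tamoxifen libraries. The Kcnj8 log2 fold change of 0.65 was not called, and was 1.16 and called without control library 2.

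Of the 4 mitochondrial transporters, which work as dimers, 1 was called (44.7% over all tested genes), and 3 lay above control in both tamoxifen libraries (43.1%). Abcb10, an inner membrane transporter needed for heme synthesis in red cell precursors, was called higher, and was looked at after its value was seen. It had 1179 and 1159 normalized counts in control libraries 1 and 2 and 3003 and 2484 in tamoxifen libraries 1 and 2, a log2 fold change of 1.22 (SE 0.16, limma, BH-adjusted p = 0.000509). Exons of the opposite-strand gene Gm45890 share 15.3% of its exon bases. Abcb8 had 763 and 951 normalized counts in the controls and 1178 and 1279 in the tamoxifen libraries, a log2 fold change of 0.53. Abcb6, a porphyrin transporter, had 0.22, and shares 54.3% of its exon bases with the same-strand gene Gm29253, so its counts are uncertain.

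Of 16 genes of heme and iron-sulfur synthesis, 6 were called higher and 1 lower (all tested genes: 28.6% and 16.0%). Both tamoxifen libraries lay above both controls for 11 (all tested genes: 43.1%). Alas2, the erythroid form of the first enzyme of the heme pathway, had 936 and 1648 normalized counts in the controls and 9064 and 5922 in the tamoxifen libraries, a log2 fold change of 2.56. It was not called without tamoxifen library 1 (2.25) or 2 (2.87). Alas1, the form of all other cells and the most abundant of the list in the controls, fell instead, from 17853 and 17516 to 5127 and 2881 normalized counts (log2 fold change -2.20). Alas2 also belongs to the erythroid marker list, which was higher in both tamoxifen libraries.

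Of the peroxisomal transporters, which import fatty acids for beta-oxidation, Abcd2 rose and the abundant Abcd3 was not called. Abcd2 had 144 and 228 normalized counts in control libraries 1 and 2 and 1181 and 1929 in tamoxifen libraries 1 and 2. It lies on chromosome 15 from 91029881 to 91076310, and its log2 fold change was 3.05 (SE 0.32, limma, BH-adjusted p = 0.000163). Without tamoxifen library 2 it was 2.699 and not called. Abcd3 had 3189 and 2980.05 normalized counts in the controls and 3368 and 3807 in the tamoxifen libraries, a log2 fold change of 0.22. Of 9 genes of peroxisome import and beta-oxidation, 1 was called, Elovl1, and 7 lay below control in both tamoxifen libraries (all tested genes: 44.7% and 39.2%). Elovl1, which elongates very long fatty acids, had a log2 fold change of -1.30, and was not called with equal totals (-0.83) or without tamoxifen library 2 (-1.10).

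The lysosomal transporters were not called. Abcd4, which takes part in the release of vitamin B12 from lysosomes, had 2092 and 2175 normalized counts in the controls and 1208 and 1209.9 in the tamoxifen libraries. These did not overlap, and the log2 fold change was -0.82 (SE 0.15, limma, BH-adjusted p = 0.00251). Abcb9, a lysosomal peptide transporter, had 447 and 681 in the controls and 456 and 662 in the tamoxifen libraries, and a log2 fold change of -0.0046. Abcg3, a rodent gene of subfamily G, had 184 and 96.4 in the controls and 114 and 63.3 in the tamoxifen libraries. Its log2 fold change of -0.64 was called with quantile normalization only, at -1.75.

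The soluble ATPases were abundant in both groups. Abce1, which splits ribosomes after termination, rose from 4486 and 3840 normalized counts in control libraries 1 and 2 to 9218 and 7889 in tamoxifen libraries 1 and 2. The Abce1 log2 fold change of 1.04 (SE 0.17, limma, BH-adjusted p = 0.00132) was just over the size limit, and it was not called without control library 2 (0.93) or without tamoxifen library 1 (0.93). Abcf1, a factor of translation initiation, had 6954 and 8298 normalized counts in the controls and 8110.03 and 6915 in the tamoxifen libraries. The groups overlapped, and its log2 fold change was -0.02 as deposited, 0.45 with equal totals and 0.48 with quantile normalization. Abcf2 had 3063 and 3663 in the controls and 5127 and 4377 in the tamoxifen libraries, a log2 fold change of 0.50. The opposite-strand gene Chpf2 shares 14.0% of its exon bases. Abcf3 had 2893 and 3428 in the controls and 2241 and 1987 in the tamoxifen libraries, a log2 fold change of -0.58. For both, the groups did not overlap but the change was under the size limit. Of 9 genes of ribosome recycling and initiation control, 1 was called, Etf1 (all tested genes: 44.7%). This termination factor, which acts just before Abce1, had a log2 fold change of 1.13, and 0.97 without tamoxifen library 1, where it was not called. Gcn1, a sensor of stalled ribosomes and the most abundant in the controls, had -0.16, and 0.31 with equal totals.

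Levels per kilobase of canonical transcript put Abcf1 first in both groups, with means of 2289 normalized counts in the controls and 2255.3 in the tamoxifen libraries. In the controls Abca1 (1615), Abcc6 (1598), Abcg1 (1369) and Abca3 (1260) followed. Abca1 ranged from 1433 to 1797 and Abcc6 from 1402 to 1795 over the 2 controls, so their order was not resolved. Abcg1, from 1248 to 1489, overlapped Abca1, Abcc6 and Abca3 there. In the tamoxifen libraries Abce1 followed Abcf1 at 2255.1, then Abcf2 at 1360.06, Abca1 at 1043 and Abcd3 at 942. Abce1 and Abcf1 overlapped there, from 2080 to 2430 and from 2076 to 2435, as did Abca1 and Abcd3, from 988 to 1098 and from 884 to 999. Abcc5, with a mean of 888, ranged from 760 to 1016 in the tamoxifen libraries and overlapped both Abca1 and Abcd3. The order of these genes was not resolved. Of the 5 leading genes of the controls, by means, Abcc6 went from place 3 to place 19, Abcg1 from 4 to 15 and Abca3 from 5 to 10 of the 39. By subfamily, 7 of 11 tested genes were called in A, 3 of 7 in B, 5 of 8 in C and 1 of 4 in D. In G it was 2 of 3. Abce1 is alone in E and was called, and the 3 genes of F were not. Over all tested genes the share called was 44.7%, and with so few genes each the subfamilies cannot be ranked. Of the relatives outside the symbol rule, Tap1 and Tap2, which carry peptides for antigen presentation, had log2 fold changes of -1.28 and -1.51.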

How the data were processed

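The library kit was KAPA Stranded mRNA-Seq. Per the labels and the study's methods, alignment by the authors was to GRCm39 with STAR 2.7.10a, which also quantified reads, low-count genes were removed, and DESeq2 1.36.0 gave the normalization. The annotation, strand setting and low-count limit were not stated. Each deposited value is a gene's signal: its count over a library factor. Columns named C were read as control and A as tamoxifen, numbered as in the sample titles. The steps in each column gave whole reads for 100% of values (tolerance 0.1), and 3 reads were taken as the floor of a count of 0. The main test was limma 3.58.1 (trend) in R 4.3.3 on log2(normalized count + 1), for means of at least 10, BH-adjusted over all 20485 genes. edgeR 4.0.16 and DESeq2 1.42.0 were run on recovered reads, each calling 19 ABC genes, and 9241 and 8739 genes in all. Scripts were tested on simulated data. Coordinates and lengths came from GENCODE M39, and alignments from blastn 2.17.0. Values were named for the 10 largest called rises and falls, uncalled genes with a mean of at least 1000, the 5 highest levels per kilobase in each group, close copies, genes under the filter, and the largest called changes and most abundant gene of each pathway list. Of 14 marker lists, sums and the most abundant gene (mean of all libraries) were given. Some genes that these rules would name are not reported here, though they remain in all counts and sums. Members and lists were chosen with earlier results of these data known. Alternatives were pseudocounts of 0.5 and 5, no filter or one of 100, equal totals, quantile normalization, no trend, a replicate block, the adjusted p alone and each library left out.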

Additional observations from a re-analysis of the deposited data

How the results depend on the processing

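Of the 15 ABC genes called higher, 8 were called in every alternative in which they were tested, as were 3 of the 4 called lower, and no called ABC gene changed direction. Of the 18 not called, 5 kept direction and side of the threshold in the other fits, and 4 of these 5 passed at the adjusted p alone. The ABC genes called were 19 with edgeR, with DESeq2, with pseudocounts of 0.5 and 5, without a filter and without the trend, and 14 with the filter at a mean of 100, which leaves 5 of the 19 untested. That filter called 5934 of all genes, against 9151. With each library left out, all genes called ranged from 4147 to 9700, and ABC genes called higher from 9 to 15. A group then has 1 library, which is assumed to vary like the others. At the adjusted p alone, 8 ABC genes were lower. The library numbers share only a number: differences within the groups correlated at 0.025 over genes. With the replicate block 20 ABC genes were called, the 19 and Abcc8, 16 higher and 4 lower, and 9525 of all genes.

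Signs changed for these genes. With equal totals the log2 fold change was 0.465 for Abcb9, 0.45 for Abcf1, 0.0786 for Mgp and 0.31 for Gcn1. With quantile normalization it was 0.0117 for Abca1, -0.31 for Abcc10, -0.69 for Abcb6, 0.48 for Abcf1 and 0.35 for Gcn1. With DESeq2 it was 0.0096 for Abcb9. With each library left out it ranged from -0.0758 to 0.22 for Abcc10, from -0.0813 to 0.34 for Abcc5, from -0.31 to 0.30 for Abcb9, from -0.0373 to 0.31 for Abca2, from -1.10 to 0.0675 for Abca4, from -0.15 to 0.11 for Abcf1 and from -0.52 to 0.54 for Rgs5. The cause was not tested. Depth limits Abca12, Abcb11, Abcc12, Abcc2 and Abca13, with at most 3 reads in each control.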
